A study of Mus musculus with 2 samples.

Results

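The nuclei described here carried at least 2 molecules of Pkd2l1, a gene for a polycystin channel that marks neurons in contact with the cerebrospinal fluid (CSF). They numbered 160 of 7610 sorted nuclei, and are called Pkd2l1 nuclei below. A molecule is a unique molecular identifier (UMI), the count that droplet sequencing gives each captured transcript. The naive library held 109 of them among 4063 nuclei, and the injured library 51 among 3547. They were set against 3964 inhibitory reference nuclei, which had at least 2 UMIs of Gad1, Gad2, Slc32a1 and Slc6a5 together and none of Slc17a6 or Pkd2l1. Every nucleus came from dorsal lumbar spinal cord (L3-L5) of adult mice of the genotype Pdyn-IRES-Cre(+/-); R26-LSL-Sun1.eGFP(+/-). In these mice a Cre recombinase made by cells that transcribe prodynorphin (Pdyn) switches on a green nuclear-envelope protein for good, and nuclei were sorted on that fluorescence. The label therefore records Pdyn transcription at any time in life, which need not have continued. Each library pooled 8 mice of either sex: the naive pool had isoflurane at postnatal day 3, and the injured pool had a left plantar hindpaw incision at postnatal day 3. With 1 pooled library per condition there was no test between conditions.

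CSF-contacting neurons lie around the central canal and send a ciliated, microvillus-bearing process into the fluid. They are GABAergic, sense fluid movement and acidity through Pkd2l1, and in rodents descend from ventral progenitors that use the transcription factors Gata2, Gata3 and Tal1. The kappa opioid receptor gene Oprk1 was named with these nuclei as a marker, and its usual ligand is dynorphin, the product of Pdyn.

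Depth bears on all values. The sums of the Pkd2l1 nuclei were 673405 naive and 341264 injured UMIs, with medians of 4847 and 5912 UMIs per nucleus, against 6976 and 8316.5 in the reference. A count of 0 in the summed Pkd2l1 nuclei allows a level of up to 4.45 CPM for the naive library and up to 8.79 CPM for the injured one, and in the reference up to 0.191 and 0.175 CPM. Each limit is 3 counts, and CPM stands for UMIs per 1000000 UMIs of the class. 3 barcode sequences occurred in both libraries, and 0 of the Pkd2l1 nuclei had one of them. All intervals are exact, at 95%, and cover counting error only. Nuclei with UMIs of both Xist, which female cells transcribe, and Y-linked genes made up 4 naive and 2 injured members of the class.

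The nuclei carried the other markers of CSF-contacting neurons. Pkd2l1 itself chose them, so its level is a description: the median was 9 UMIs per naive nucleus (highest 26) and 14 per injured nucleus (highest 28). Of 13 other markers fixed for the class, naive Pkd2l1 nuclei had UMIs of a median of 4 and injured ones of 5, while the reference median was 0 in both libraries. At least 3 of the 13 were present in 104 of 109 naive and 47 of 51 injured Pkd2l1 nuclei, and in 0 of 2086 naive and 1 of 1878 injured reference nuclei. Thus 151 of the 160 nuclei had at least 3 of these markers, and the other 9 had fewer. The markers were listed with earlier results of these data known, so this is no independent check of the name. Among the 151 were naive nuclei of 32689 and 65865 UMIs with 2 Pkd2l1 UMIs each. Both also carried genes of the reference, as described below. At the threshold, 2 of 47 nuclei with 1 Pkd2l1 UMI had at least 3 other markers, against 3 of 8 nuclei with 2 UMIs and 5 of 5 nuclei with 3 UMIs.

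Pkd1l2, a polycystin of the same family as Pkd2l1 (ENSMUSG00000034416, mm10 chromosome 8, 116995679 to 117082449), was among the most complete markers. It had UMIs in 105 of 109 naive and 49 of 51 injured Pkd2l1 nuclei, with a median of 25 (0 to 97) and 33 (0 to 118) UMIs per nucleus. Its level was 4756 CPM in naive and 5392 CPM in injured Pkd2l1 nuclei, against 3.95 and 4.37 CPM in the reference. That is a log2 fold of 10.17 ± 0.16 (SE, 2 libraries per class), with an adjusted p of 1.01e-42. All adjusted p-values come from edgeR's quasi-likelihood test on the 4 sums of nuclei, with the library as a block and Benjamini-Hochberg adjustment over 9828 genes. Only genes with a mean of at least 10 CPM over the sums were tested. A gene near 0 in a class reached that level through the other class alone. Its direction was then fixed, so its p-value adds nothing to its levels. Myo3b, a myosin of actin-based protrusions, had UMIs in 106 of 109 naive and 49 of 51 injured Pkd2l1 nuclei. Its levels were 2510 and 3478 CPM against 10.4 and 8.27 CPM, a log2 fold of 8.23 ± 0.16 (adjusted p = 1.13e-39). In the plot of marker shares these pairs of points lie near the right edge for the Pkd2l1 nuclei and near the left edge for the reference.

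**Figure D1:**
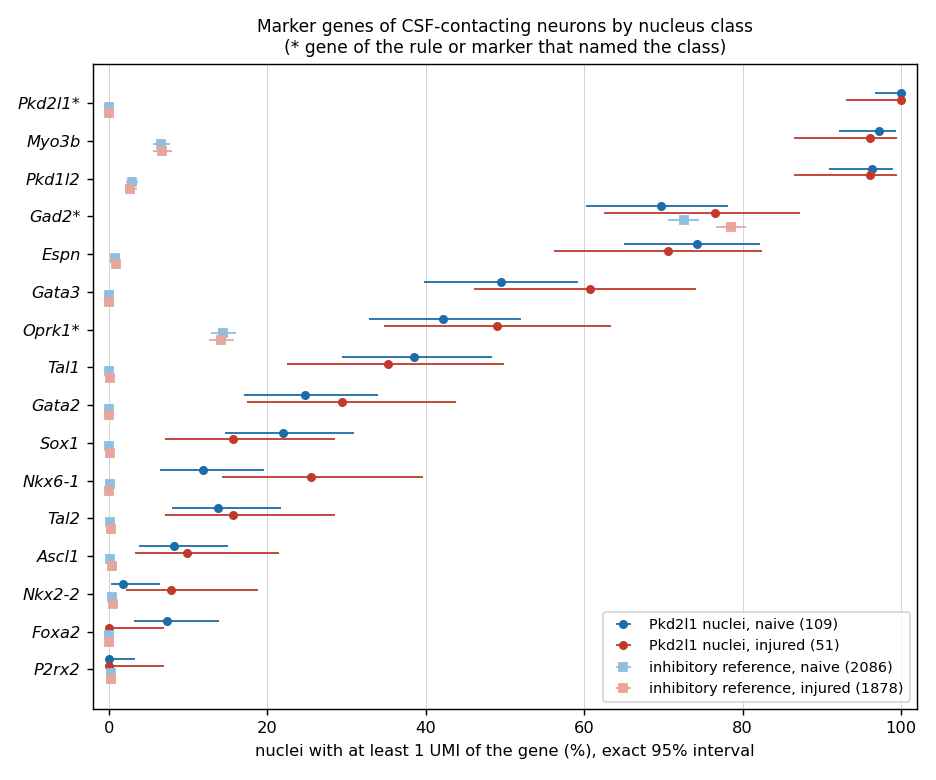
Percentage of nuclei with at least 1 UMI (horizontal axis) for the 16 markers of CSF-contacting neurons (vertical axis), by class and library, with exact 95% intervals; an asterisk marks genes of the rule or of the class's name. Gata2 had UMIs in 24.8% of naive and 29.4% of injured Pkd2l1 nuclei and in 0 reference nuclei, and Gad2 shares overlap between the classes.

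The transcription factors of the CSF-contacting lineage were nearly absent from the reference. Gata2 had 36 UMIs in naive and 23 in injured Pkd2l1 nuclei and 0 in the reference of both libraries. Its level was thus at least 279.6-fold higher in the naive library, against a floor of 3 counts per library, and at least 386-fold higher in the injured library. Gata3 (chromosome 2, 9857078 to 9890034) stood at 147 CPM in both libraries, with 99 and 50 UMIs, against 0 and 1 UMI in the reference. Tal1 had 76 and 31 UMIs, 113 and 90.8 CPM, against 1 and 3 UMIs in the far larger reference. The test placed all of them higher, with adjusted p-values of 3.38e-18 for Gata2, 1.21e-25 for Gata3 and 2.81e-22 for Tal1. They reached the tested level through the Pkd2l1 nuclei alone, so no other direction could have been called. At least 1 of Gata2, Gata3 and Tal1 was seen in 80 of 109 naive Pkd2l1 nuclei (73.4%, 64.1 to 81.4) and 42 of 51 injured ones (82.4%, 69.1 to 91.6). The same held for 1 naive and 2 injured reference nuclei, and for 1 excitatory nucleus of each library.

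Sparser factors separated the classes as well. Tal2, Sox1 and Nkx6-1 also reached the test through the Pkd2l1 nuclei alone, so their p-values add nothing to their levels. Tal2, a relative of Tal1, was at 23.8 and 44.0 CPM against 0.446 and 0.407 CPM (log2 fold 6.14 ± 0.62, adjusted p = 9.59e-12). Sox1 was at 41.6 and 23.4 CPM, from 28 and 8 UMIs, against 1 and 3 UMIs in the reference (adjusted p = 3.17e-13). Nkx6-1, a ventral progenitor factor, was at 19.3 and 44.0 CPM, from 13 and 15 UMIs, against 3 and 0 UMIs (adjusted p = 1.27e-11). Foxa2, a floor plate factor, had 8 UMIs in 8 naive Pkd2l1 nuclei and 0 in the injured ones, and Nkx2-2 had 2 and 4. Among all 160 Pkd2l1 nuclei, 0 had both Foxa2 and Nkx6-1, from 8 and 26 nuclei with either. At 0 to 2 UMIs per nucleus a lack of overlap does not separate subtypes.

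P2rx2, an ATP-gated channel that marks these neurons in other work, had 0 UMIs in the Pkd2l1 nuclei of both libraries. It was not detectable at this depth. Of the 16 listed markers, 9 passed the minimum mean level of 10 CPM and were not part of the rule, and all 9 were called higher. The call rate in that direction over all genes was 11.8%. The list's median log2 fold was 8.23, or 8.13 with Gata2 at its bound, against 0.01 over all genes. Genes such as Gata2 passed that minimum only through the Pkd2l1 nuclei, so their count supports nothing beyond the values above.

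Cofactors and further ventral factors were chosen here after their values were seen. Zfpm2, a cofactor of GATA factors, was at 490.0 and 551 CPM against 28.2 and 41.0 CPM (log2 fold 3.86 ± 0.13). Sox2, a progenitor factor that CSF-contacting neurons retain, was at 107 and 132 CPM against 0.319 and 1.40 CPM. Lmo1, a LIM-only partner of Tal1, was at 71.3 and 99.6 CPM against 2.23 and 1.92 CPM. Of 14 tested genes of the list of GATA and ventral interneuron factors, 9 were called higher and 2 lower, with a median of 5.69, against 11.8% and 12.9% over all genes. Several of them, such as Tal2, also passed the minimum level only through the Pkd2l1 nuclei, so this count and median support nothing. Among the 2 lower genes was Lmo2, at a log2 fold of -2.34 ± 0.56; DESeq2 called 0 of the list lower.

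Factors of dorsal horn identity went both ways. Of 22 tested, 12 were lower and 7 higher in Pkd2l1 nuclei (median -1.25), against call rates over all genes of 12.9% lower and 11.8% higher. Pax2, which dorsal inhibitory neurons need, was at 35.6 and 17.6 CPM in Pkd2l1 nuclei against 202 and 203 CPM in the reference, and Pax8 at 37.1 and 23.4 CPM against 178 and 189 CPM. Both were named after their values were seen. Lhx5, a dorsal inhibitory factor, had 2 and 0 UMIs in Pkd2l1 nuclei and 19.2 and 19.0 CPM in the reference (adjusted p = 0.000106, lost with DESeq2). Skor1, a corepressor of dorsal neurons, had 2 and 0 UMIs against 32.0 and 23.6 CPM (adjusted p = 6.5e-07). Lhx5 and Skor1 passed the minimum level through the reference alone, so their direction was fixed. The count of this list thus supports nothing beyond the values of single genes. The higher genes of the list were led by Meis2, a homeobox factor. It was at 2340 and 2942 CPM against 10.8 and 17.0 CPM, a log2 fold of 7.51 ± 0.14 (adjusted p = 5.17e-40), and had UMIs in 107 of 109 and 49 of 51 Pkd2l1 nuclei. Nfia, a nuclear factor I gene, was at 478 and 530 CPM against 32.8 and 49.4 CPM (log2 fold 3.58 ± 0.13).

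The genes that most separated the class included several with little link to neurons. Slc26a4, the anion exchanger pendrin, was at 628 CPM in naive and 820 CPM in injured Pkd2l1 nuclei, against 0.892 and 1.16 CPM (log2 fold 9.36 ± 0.17, adjusted p = 1.44e-40). Pkhd1l1, which encodes fibrocystin-L, a large protein of the hair-cell surface, was at 376 and 598 CPM against 1.21 and 1.22 CPM (log2 fold 8.54 ± 0.19). Dcn, the matrix proteoglycan decorin, was at 304 and 352 CPM against 0.828 and 0.699 CPM (log2 fold 8.64 ± 0.22), in 72 of 109 and 37 of 51 nuclei. Dcn is also a fibroblast marker. The fibroblast gene Col1a1 had 0 UMIs in the Pkd2l1 nuclei of both libraries. Srd5a2, a steroid 5-alpha-reductase, was at 129 and 161 CPM against 0.446 and 0.291 CPM (log2 fold 8.49 ± 0.37). Cd38, an enzyme that consumes NAD, was at 101 and 123 CPM, from 68 and 42 UMIs, against 2 and 7 UMIs. Grap2, an adaptor protein of T cell signalling, was at 287 and 316 CPM against 0.319 and 0.524 CPM. C1qtnf7, a secreted C1q family protein, was at 355 and 384 CPM against 1.34 and 1.69 CPM. Adgrf5, an adhesion receptor, and Pdzk1ip1, a small membrane protein, completed the 15 highest genes, each with at least 21 UMIs in each library of the class and at most 1 in each of the reference. In every one of these genes both libraries of the class lay far above both of the reference. The choice of these genes required the same direction in both libraries. Genes such as Slc26a4 also passed the minimum level through the Pkd2l1 nuclei alone. The agreement of the libraries is therefore a description and supports nothing beyond the levels.

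Promoter windows of 4 of these genes are shown because the genes stood together with GATA factors across both libraries. Each window runs from 250 bases before to 50 after the start in RefSeq (build GRCm38.p6), 5′ to 3′ on the gene's strand. Capitals mark GATAA or its reverse complement TTATC, searched on both strands.
Pkd1l2 (chr8:117082400-117082699): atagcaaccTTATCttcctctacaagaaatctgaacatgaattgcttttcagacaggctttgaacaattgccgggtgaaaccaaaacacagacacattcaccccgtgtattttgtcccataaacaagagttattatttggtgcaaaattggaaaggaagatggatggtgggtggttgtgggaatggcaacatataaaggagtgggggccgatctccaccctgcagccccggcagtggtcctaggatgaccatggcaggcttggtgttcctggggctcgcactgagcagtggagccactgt
Slc26a4 (chr12:31559935-31560234): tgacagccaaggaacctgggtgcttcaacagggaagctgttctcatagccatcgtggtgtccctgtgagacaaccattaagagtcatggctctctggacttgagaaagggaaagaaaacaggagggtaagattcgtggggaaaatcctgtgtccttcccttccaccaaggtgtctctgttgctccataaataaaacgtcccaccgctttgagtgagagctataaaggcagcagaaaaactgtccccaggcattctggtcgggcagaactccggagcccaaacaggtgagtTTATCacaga
Tal1 (chr4:115056176-115056475): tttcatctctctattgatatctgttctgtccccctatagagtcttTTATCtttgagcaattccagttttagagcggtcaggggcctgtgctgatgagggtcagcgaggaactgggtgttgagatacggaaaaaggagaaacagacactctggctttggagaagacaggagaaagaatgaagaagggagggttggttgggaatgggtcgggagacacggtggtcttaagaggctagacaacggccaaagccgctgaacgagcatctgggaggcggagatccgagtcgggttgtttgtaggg
Myo3b (chr2:70038876-70039175): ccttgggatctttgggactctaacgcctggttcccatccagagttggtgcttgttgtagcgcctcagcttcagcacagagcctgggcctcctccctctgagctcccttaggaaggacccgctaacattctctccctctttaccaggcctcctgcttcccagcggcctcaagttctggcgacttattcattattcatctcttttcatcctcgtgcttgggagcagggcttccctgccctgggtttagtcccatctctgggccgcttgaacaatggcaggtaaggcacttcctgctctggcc
Pkd1l2 lies on the minus strand, as does Slc26a4, and Tal1 and Myo3b on the plus strand. The printed Pkd1l2, Slc26a4 and Tal1 windows each held 1 match and the Myo3b window 0. A second Tal1 window (chr4:115057561-115057860), not printed, held 0, as did the windows of Gata2 and Gata3. Of the 15 highest genes, 13 had 18 windows in the table, and 7 of these (38.9%) held a match. Over all 32851 windows of this length the share was 25.4%. Among windows of genes called higher it was 17.6%, and among those of all tested genes 16.0%. A search for the E-box CAGNTG, bound by factors such as Tal1, on both strands gave 61.1% of the 18 windows, 51.4% of all windows, 44.9% for genes called higher and 43.5% for all tested genes. A match is a short letter sequence, not a measured binding site.

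Genes of the apical process were uneven. Espn, the actin bundler espin of stereocilia and microvilli, was at 307 and 214 CPM against 1.15 and 1.05 CPM (log2 fold 7.79 ± 0.24, adjusted p = 3.33e-31). Eps8, an actin-capping protein of stereocilia, was at 113 and 193 CPM against 5.16 and 5.24 CPM (log2 fold 4.74 ± 0.25). Pcdh15, a hair-cell tip-link protein, was at 1282 and 1433 CPM against 580 and 623 CPM (log2 fold 1.09 ± 0.11), named after its values were seen. Its tip-link partner Cdh23 was lower, at 7.42 and 17.6 CPM against 21.6 and 27.7 CPM (log2 fold -1.20 ± 0.40, adjusted p = 0.0217). It missed the threshold with DESeq2 and without the library block. Of 10 tested stereocilium and microvillus genes, 5 were higher and 1 lower, with a median of 0.52, against 11.8% and 12.9% over all genes. Espn and Eps8 passed the minimum level only through the Pkd2l1 nuclei, so their direction was fixed. The count thus supports nothing beyond the values of single genes.

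Genes of the primary and the motile cilium were listed apart. Of 26 tested primary cilium genes 2 were called higher, Ift80 (log2 fold 0.97 ± 0.23) and Bbs2 (0.84 ± 0.28), and 0 lower, with a median of -0.02, against 11.8% and 12.9% over all genes. At an unadjusted p under 0.05 the test gave 8 genes of this list, and DESeq2 called 0. Bbs2 rested on the naive library, with 42 UMIs there and 6 in the injured one. Its log2 value was -0.46 in the injured library alone. Of 50 motile cilium genes 22 were tested, and of these 9 were higher and 0 lower, with a median of 0.68. Some, such as Rfx2 and Spef2, passed the minimum level only through the Pkd2l1 nuclei, so the count supports nothing beyond the values of single genes, and the lists were not tested against each other. Spag16, an axonemal protein, was at 113 and 170 CPM against 8.60 and 9.49 CPM (log2 fold 3.85 ± 0.22). The kinase Stk33 was at 123 and 176 CPM against 10.6 and 12.9 CPM (log2 fold 3.56 ± 0.20), and Rfx2, a regulator of ciliary genes, at 32.7 and 41.0 CPM against 3.95 and 3.90 CPM. Spef2 was at 25.2 and 32.2 CPM against 3.50 and 2.68 CPM. Of 12 markers of ependymal cells, which line the canal and bear motile cilia, 3 were tested and edgeR and DESeq2 called 0, with 1 at an unadjusted p under 0.05. Their summed level was 160 and 161 CPM in Pkd2l1 nuclei against 127 in both reference libraries, and Foxj1, the master factor of motile cilia, had 1 and 0 UMIs. Of the 12, 3 in the naive and 4 in the injured Pkd2l1 nuclei were at 0.

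Sensory channels, polycystins among them, went both ways. Of 15 tested channels of the mechano- and acid-sensing list, which includes polycystins, 5 were higher and 6 lower (median -0.22). Over all genes 11.8% were higher and 12.9% lower. Trpc6 was at 83.2 and 108 CPM against 10.0 and 10.5 CPM (log2 fold 3.12 ± 0.25, adjusted p = 4.67e-15). Pkd1l3, another polycystin-1-like gene, was at 37.1 and 38.1 CPM against 9.24 and 6.93 CPM (log2 fold 2.10 ± 0.35). It passed the minimum level through the Pkd2l1 nuclei, so its direction was fixed. The acid-sensing channel genes Asic1 and Asic4, named after their values were seen, had log2 folds of 1.34 ± 0.20 and 2.01 ± 0.29. Trpc5 was lower, at 89.1 and 38.1 CPM against 378 and 422 CPM (log2 fold -2.57 ± 0.19).

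The GABA synthesis gene Gad2 was at or above its reference level and the glycine transporter gene below it. The inhibitory genes chose the reference, so their levels are given without a test. Gad2, which makes GABA, was at 251 CPM in naive and 299 CPM in injured Pkd2l1 nuclei, against 188 and 189 CPM in the reference. Gad1 was at 83.2 and 123 CPM against 160.4 and 128 CPM. The vesicular transporter Slc32a1 was at 68.3 and 85.0 CPM against 88.2 and 59.7 CPM. The glycine transporter Slc6a5 was at 40.1 and 35.2 CPM against 139 and 147 CPM, with UMIs in 7 of 109 and 3 of 51 Pkd2l1 nuclei. The reference was chosen on these genes, so it could not have been low in all of them. 14 naive and 4 injured Pkd2l1 nuclei had no UMI of the inhibitory genes, and 5 and 3 had a UMI of the glutamate transporter Slc17a6.

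A monoamine enzyme was present without its partners. Ddc, which decarboxylates aromatic amino acids, was at 63.9 and 52.7 CPM against 1.59 and 2.27 CPM (log2 fold 4.87 ± 0.39, adjusted p = 6.98e-15), in 30 of 109 and 13 of 51 Pkd2l1 nuclei. The enzymes Th and Tph2, which supply its dopamine and serotonin precursors, had 0 UMIs in both libraries, as did Chat, which makes acetylcholine. At this depth their absence means a level under the limits given above. The nitric oxide synthase gene Nos1 was lower, at 19.3 and 17.6 CPM against 84.8 and 54.0 CPM (log2 fold -2.06 ± 0.28).

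Among the opioid genes, the class was high in Oprk1 and low in Pdyn, Oprm1 and Pnoc. Oprk1 was at 114 CPM (90.2 to 143) in naive and 108 CPM (76.3 to 149) in injured Pkd2l1 nuclei. The reference was at 23.3 and 19.2 CPM, and excitatory nuclei, with the glutamate transporter Slc17a6 and no inhibitory gene, at 22.7 and 16.5 CPM. Oprk1 had UMIs in 46 of 109 naive (42.2%) and 25 of 51 injured Pkd2l1 nuclei (49.0%), in 14.4% and 14.2% of the deeper reference nuclei, and in 0 of 99 oligodendrocyte nuclei. With each nucleus thinned to 3000 UMIs the shares were 32.4% and 34.7% against 6.39% and 5.17%. Oprk1 helped name the class, so it was not tested. Both libraries of the class lay above both of the reference.

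Pdyn itself, whose past transcription gives the nuclei their label, was low in these nuclei. It had 7 UMIs in 4 naive Pkd2l1 nuclei and 2 UMIs in 2 injured ones, or 10.4 and 5.86 CPM, against 33.8 and 34.1 CPM in the reference (log2 fold -2.02 ± 0.40, adjusted p = 5.77e-05). Of the reference nuclei 418 of 2086 and 385 of 1878 had a Pdyn UMI, and of the excitatory nuclei 125 of 481 and 109 of 473. Without 6 naive Pkd2l1 nuclei that also carried genes of the reference, described below, 1 Pdyn UMI was left in 103 naive nuclei, 1.88 CPM (0.0475 to 10.5). Pdyn was itself among the lower genes that picked out these 6, so part of that fall was fixed by the choice. With nuclei of 1 Pkd2l1 UMI added to the class, Pdyn no longer passed the threshold.

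Other opioid genes were level or lower. Oprm1, the mu receptor gene, was at 46.0 and 26.4 CPM against 137 and 124 CPM (log2 fold -1.84 ± 0.21, adjusted p = 4.1e-10). Pnoc, the nociceptin precursor, was at 49.0 and 38.1 CPM against 104 and 75.2 CPM (log2 fold -1.14 ± 0.21, adjusted p = 2.15e-05). Penk, the enkephalin precursor, was at 74.2 and 32.2 CPM against 62.7 and 36.8 CPM, and did not pass the test (adjusted p = 0.907); its direction turned with several settings. Oprl1, the nociceptin receptor, did not pass either, at 20.8 and 14.7 CPM against 15.2 and 11.1 CPM. Oprd1 and Pomc were below the level tested. Of 5 tested opioid genes 3 were lower and 0 higher, with a median of -1.14, against 12.9% and 11.8% over all genes. In the bar plot of opioid genes the Pkd2l1 nuclei exceed the reference in Oprk1 and fall short of it in Oprm1, Pnoc and Pdyn.

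**Figure D2:**
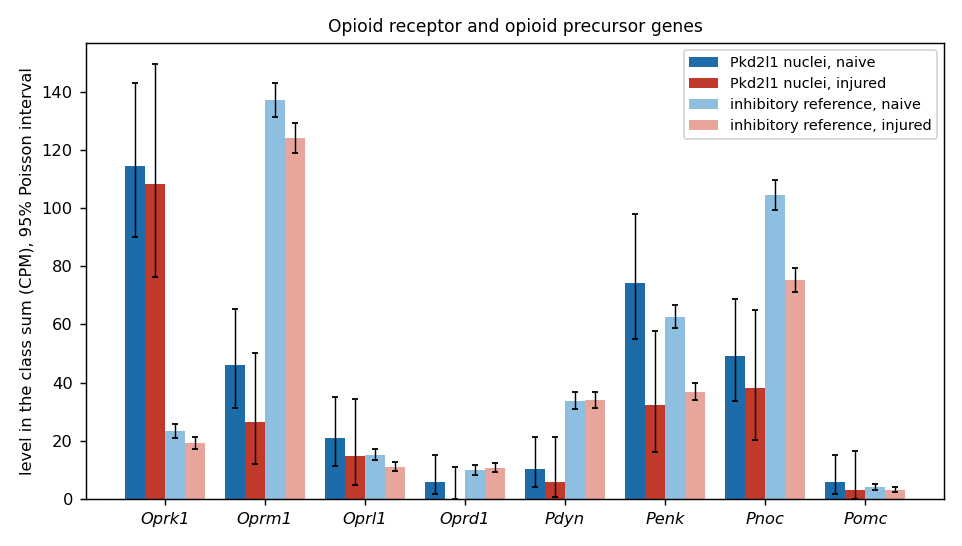
Level in CPM (vertical axis, from 0) of 8 opioid receptor and precursor genes in the summed Pkd2l1 nuclei and inhibitory reference nuclei of each library, with exact 95% Poisson intervals. Oprk1 bars reach 114 and 108 CPM in Pkd2l1 nuclei against 23.3 and 19.2 CPM, and Pdyn bars 10.4 and 5.86 CPM against 33.8 and 34.1 CPM.

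Of 18 tested genes of the neuropeptide list 10 were lower and 3 higher (median -1.05), and with DESeq2 8 and 2, against 12.9% lower and 11.8% higher over all genes. Pcsk1, a prohormone convertase, was at 16.3 and 11.7 CPM against 69.8 and 59.8 CPM (log2 fold -2.25 ± 0.30), and Vgf, a secretory granule protein, at 10.4 and 2.93 CPM against 30.6 and 24.7 CPM. Sst, somatostatin, was called higher (log2 fold 2.07 ± 0.48, adjusted p = 0.00063) from 20 UMIs in 5 naive nuclei and 2 UMIs in 2 injured ones. It was lost with DESeq2. Among peptide receptors, 4 of 18 tested were higher and 9 lower (median -1.15), and with DESeq2 3 and 5. Cckar, a cholecystokinin receptor, was at 26.7 and 23.4 CPM against 0.765 and 0.407 CPM (log2 fold 5.28 ± 0.63, adjusted p = 1.27e-09). Glp1r, the receptor of glucagon-like peptide 1, was at 19.3 and 58.6 CPM against 3.89 and 4.89 CPM (log2 fold 2.91 ± 0.42). Tacr3, a neurokinin receptor, was at 17.8 and 8.79 CPM against 87.9 and 80.7 CPM, and Crhr1 at 7.42 and 5.86 CPM against 48.9 and 44.7 CPM. Cckar and Glp1r passed the minimum level only through the Pkd2l1 nuclei, and Crhr1 only through the reference. The count of peptide receptors thus supports nothing beyond the values of single genes.

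Of the acetylcholine receptor genes tested, 3 were higher. Chrm2, an inhibitory muscarinic receptor, was at 1175 and 1198 CPM against 76.8 and 104 CPM (log2 fold 3.66 ± 0.12, adjusted p = 8.92e-30), in 102 of 109 and 49 of 51 Pkd2l1 nuclei. Chrna7, a nicotinic subunit, was at 203 and 229 CPM against 22.3 and 30.7 CPM (log2 fold 2.98 ± 0.16), and Chrm3 at 689 and 721 CPM against 252 and 325 CPM (log2 fold 1.23 ± 0.12). Of 17 such genes 4 were tested, with 3 higher and 0 lower (median 2.10), against 11.8% and 12.9% over all genes. Monoamine receptors were lower in 5 of 11 and higher in 1 (median -0.60), led by Hrh3 and Htr7 at log2 folds of -2.61 ± 0.54 and -2.37 ± 0.25, and with DESeq2 in 2 and 0.

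Receptors for the fast transmitters were lower in most members tested. Of 22 glutamate receptor genes 17 were lower and 3 higher (median -1.27), and of 19 GABA and glycine receptor genes 17 were lower and 2 higher (median -0.97). Over all genes 12.9% were lower and 11.8% higher. Grm5, a metabotropic glutamate receptor, was at 708 and 328 CPM against 3829 and 3986 CPM (log2 fold -2.98 ± 0.15, adjusted p = 1.92e-22), with UMIs in 25 of 109 and 10 of 51 Pkd2l1 nuclei. Gria1, an AMPA receptor subunit, was at 224 and 138 CPM against 1225 and 1261 CPM (log2 fold -2.80 ± 0.15). Grin2b, an NMDA receptor subunit, was at 203 and 93.8 CPM against 710 and 780 CPM (log2 fold -2.30 ± 0.16). Glra3, a glycine receptor subunit, was at 23.8 and 17.6 CPM against 87.5 and 100.2 CPM (log2 fold -2.17 ± 0.26). Gabrg1, a GABA-A subunit, was at 23.8 and 17.6 CPM against 98.5 and 95.9 CPM. With DESeq2, 10 of the 19 GABA and glycine genes were lower.

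The cotransporters that set chloride went in opposite directions. Slc12a2 (NKCC1), which loads cells with chloride, was at 119 and 103 CPM against 44.5 and 48.5 CPM (log2 fold 1.21 ± 0.18, adjusted p = 3.17e-07). Slc12a5 (KCC2), which exports it in mature neurons, was at 92.1 and 35.2 CPM against 204 and 168 CPM (log2 fold -1.51 ± 0.19, adjusted p = 2.71e-09). The kinases Wnk1 and Wnk2 were higher by log2 folds of 0.49 ± 0.14 and 0.66 ± 0.13, and Wnk1 was lost with DESeq2.

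Ion channels differed gene by gene. For the counts below, the rates over all genes were 12.9% lower and 11.8% higher. Of 45 tested potassium channel genes 22 were lower and 8 higher (median -0.73). Kcnj3, a G protein-gated channel subunit, was at 110 and 108 CPM against 730 and 761 CPM (log2 fold -2.84 ± 0.15), in 10 of 109 and 8 of 51 nuclei. Kcnq5 was at 128 CPM in the naive but 17.6 CPM in the injured Pkd2l1 nuclei, against 446 and 525 CPM in the reference, and did not pass with DESeq2. Of 20 calcium channel genes 8 were lower and 2 higher (median -0.30), and with DESeq2 5 and 2. Cacna2d1, the target of gabapentin, was called higher (log2 fold 2.33 ± 0.28), but its 67 naive UMIs lay in 10 nuclei and its 13 injured UMIs in 3. Of 13 sodium, HCN and leak channel genes 4 were lower and 1 higher (median -0.23), and with DESeq2 2 and 1. The higher gene was Scn9a, a voltage-gated sodium channel, at 264 and 240.3 CPM against 94.0 and 114 CPM (log2 fold 1.24 ± 0.14).

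Guidance and adhesion genes held large differences of both signs. Nrp2, a semaphorin coreceptor, was at 529 and 727 CPM against 16.9 and 19.3 CPM (log2 fold 5.02 ± 0.13, adjusted p = 1.04e-34). Dcc, the netrin receptor, had UMIs in all 109 and all 51 Pkd2l1 nuclei, at 5364 and 7839 CPM against 612 and 672 CPM (log2 fold 3.26 ± 0.12). Sema5b was at 229 and 179 CPM against 12.6 and 11.6 CPM (log2 fold 4.01 ± 0.18). Robo2, a Slit receptor, was at 330 and 220 CPM against 1869 and 2038 CPM (log2 fold -2.86 ± 0.14). Of 38 guidance genes 11 were higher and 20 lower (median -0.66), and of 55 adhesion genes 10 higher and 36 lower (median -0.84). Over all genes 11.8% were higher and 12.9% lower. The plot of named genes shows the called genes with the largest changes of each list, so it does not show how the rest of a list lay.

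**Figure D3:**
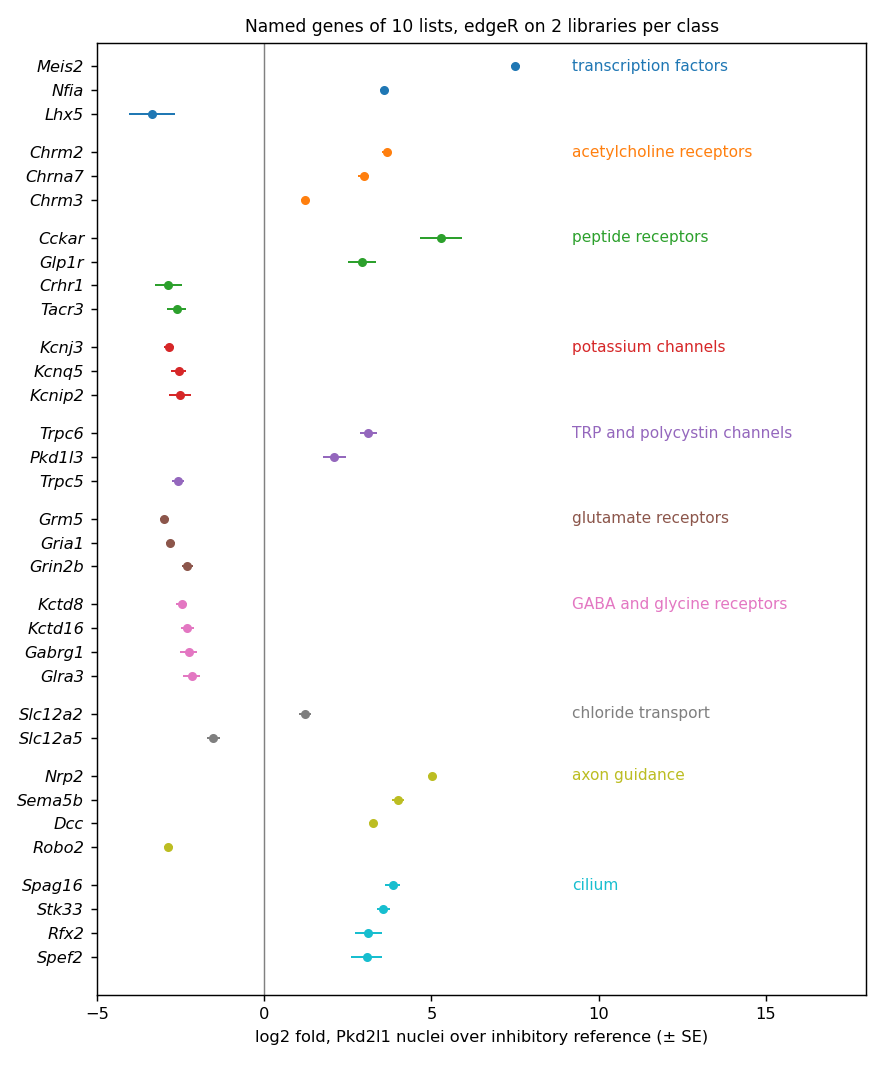
Log2 fold between Pkd2l1 nuclei and the inhibitory reference (horizontal axis, ± SE from edgeR over 2 libraries per class) for named genes of 10 groups (vertical axis). Meis2 lies at 7.51 and Cckar at 5.28, while Grm5, Gria1 and Grin2b lie between -2.98 and -2.30.

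The genes nearest to absence in the class were Mmd2, Mlxipl and Cdh3. Mmd2 had 0 UMIs in both libraries of Pkd2l1 nuclei and 24.2 and 20.1 CPM in the reference (adjusted p = 4.64e-07, lost with DESeq2). Mlxipl, a glucose-responsive factor, had 0 and 1 UMI against 37.5 and 33.8 CPM. Cdh3, P-cadherin, had 1 and 0 UMIs against 28.9 and 24.2 CPM. Rab38, a small GTPase of membrane trafficking, had 5 and 2 UMIs against 101 and 91.9 CPM (log2 fold -3.90 ± 0.34). Gucy2d, a guanylate cyclase, had 7 and 0 UMIs against 81.7 and 80.1 CPM. Fam163b, Rasgrp1, Plk5 and Grin2c each had at most 3 UMIs in either library of the class. Over all genes tested, 1155 were higher and 1269 lower in Pkd2l1 nuclei, 24.7% of 9828 in either direction, and 2417 of these 2424 had the same direction in both libraries.

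Some Pkd2l1 nuclei also carried genes of the reference. The summed level of 221 genes that were over 4-fold lower in the class ran from 1098 to 68367 CPM over naive Pkd2l1 nuclei (median 3323) and from 1055 to 78467 CPM over injured ones (median 3686). Reference medians were 83935 and 89350 CPM. At or above the level that leaves out the lowest 1% of the reference (37312 CPM) lay 6 naive and 2 injured Pkd2l1 nuclei. The 6 had a median of 11906 UMIs against 4793 in the others, and the 2 had 16756.5 against 5821. These nuclei accounted for 20.8% of all naive UMIs of the class and for 9.82% of all injured ones, and 3 and 1 of them had both Xist and Y-linked UMIs. The deepest naive nucleus, with 65865 UMIs, held 9.78% of the naive UMIs of the class. These genes were chosen on the same sums, so the split is a description. Without nuclei over 9000 UMIs, a limit chosen after the data were seen, 1348 genes were higher and 1480 lower. In the plot of these genes by nucleus most points form a cloud far under the reference medians, and 6 of the 8 nuclei above the lower line had over 9000 UMIs.

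**Figure D4:**
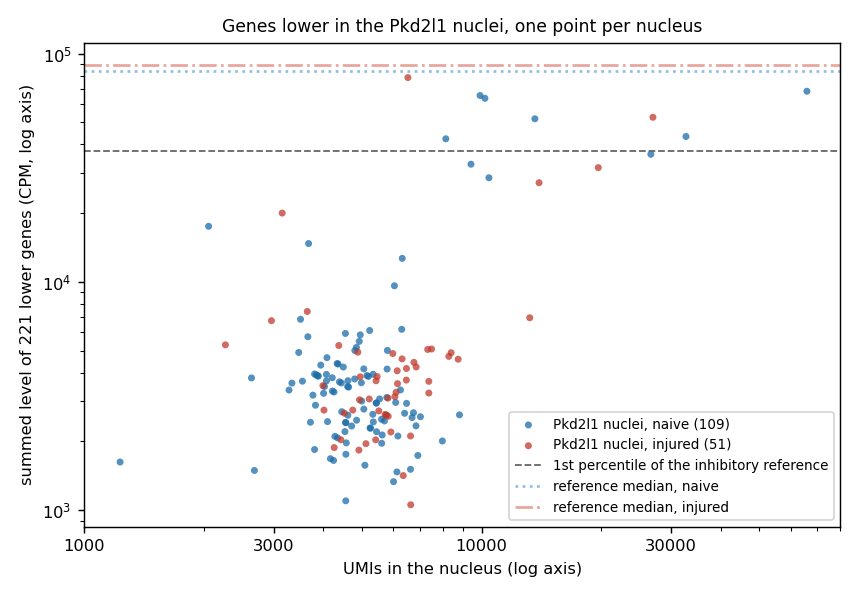
Summed level of the 221 genes over 4-fold lower in the class (vertical axis, CPM, log scale) against UMIs (horizontal axis, log scale) for each of the 109 naive and 51 injured Pkd2l1 nuclei; horizontal lines give the reference medians and its level at the lowest 1%. Medians of 3323 and 3686 CPM lie far under those of the reference, 83935 and 89350 CPM, and 8 nuclei lie at or above 37312 CPM.

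Some oligodendrocyte transcripts were higher in the class. Of 7 tested markers 6 were higher in Pkd2l1 nuclei, but 2 of 6 with at least 3 Pkd2l1 UMIs. The rate of higher calls over all genes was 11.8%. The 8 markers summed to 861 and 944 CPM against 144 and 218 CPM in the reference and 18176 and 12253 CPM in oligodendrocyte nuclei. None of the 8 was at 0. St18, a zinc finger factor of that list, gave 544 and 633 CPM of these sums and was spread over the class, with UMIs in 89 of 109 and 47 of 51 nuclei (log2 fold 3.36 ± 0.12). The myelin genes Mog and Mobp were not: Mog had UMIs in 5 naive and 2 injured Pkd2l1 nuclei, and Mobp in 7 and 3. Both passed the minimum mean level through the Pkd2l1 nuclei, so the count of called markers supports nothing beyond the values of single genes. Mog and Mobp also lost the threshold under some settings. Astrocyte markers summed to 41.6 and 44.0 CPM against 56.1 and 61.2 CPM, with 1 and 4 of 8 at 0. Microglia markers summed to 62.4 and 67.4 CPM against 80.4 and 74.6 CPM, with 2 of 6 at 0, among them Csf1r and C1qa. Endothelial markers summed to 31.2 and 29.3 CPM against 8.28 and 12.6 CPM. Most of this was Flt1, at 23.8 and 26.4 CPM, with UMIs in 9 of 109 and 5 of 51 nuclei. None of the other endothelial markers lay above its reference level in both libraries. What these transcripts contribute to the calls of other genes was not tested.

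The class took a larger share of the naive library. It was 2.68% of naive nuclei (2.21 to 3.23) and 1.44% of injured nuclei (1.07 to 1.89). With at least 3 Pkd2l1 UMIs the shares were 2.54% and 1.38%, and with nuclei thinned to 3000 UMIs 2.54% and 1.38%. Without nuclei over 9000 UMIs they were 3.19% and 2.30%, and the counting intervals (2.60 to 3.86 and 1.69 to 3.04) overlapped. A sex marker moved with this difference. Of the Pkd2l1 nuclei with either Xist or Y-linked UMIs but not both, 98 of 103 naive ones (95.1%) had Xist, against 31 of 48 injured ones (64.6%). In the reference it was 1293 of 1911 (67.7%) and 1133 of 1737 (65.2%). The part of dissection, of the gate and of single mice in these shares was not tested, and the condition cannot be told apart from the pool.

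Between the conditions, levels in the class were compared gene by gene without a test. A minimum of 100 UMIs, summed over both libraries of the class, left 1891 genes. Of these, 54 were past 1.5-fold higher in the injured library with an interval that left out 1 (2.86%), and 70 were lower (3.70%). Over the other settings tried the counts ran from 19 to 111 higher and from 16 to 161 lower, and 30 were lower without the 8 nuclei with genes of the reference. The middle 90% of log2 ratios ran from -0.56 to 0.49 in the class and from -0.21 to 0.25 in the reference, which held many more UMIs per gene. Pkd2l1, Pkd1l2 and Myo3b had ratios of 1.31 (1.19 to 1.45), 1.13 (1.07 to 1.20) and 1.39 (1.29 to 1.49), short of 1.5-fold. Oprk1 had a ratio of 0.948 (0.623 to 1.42), and Gata3 of 0.997 (0.695 to 1.41). Espn was lower at 0.696 (0.525 to 0.913). Penk, at 0.434 (0.204 to 0.845), and Nkx6-1, at 2.28 (1.01 to 5.20), lay past 1.5-fold with fewer than 100 UMIs, from 50 and 11 and from 13 and 15 UMIs. Penk was also lower in the injured library outside the class. It was at 62.7 CPM naive and 36.8 CPM injured in the reference, and at 166 and 107 CPM in excitatory nuclei. In the plot of ratios the class spreads along its own axis more than the reference does.

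**Figure D5:**
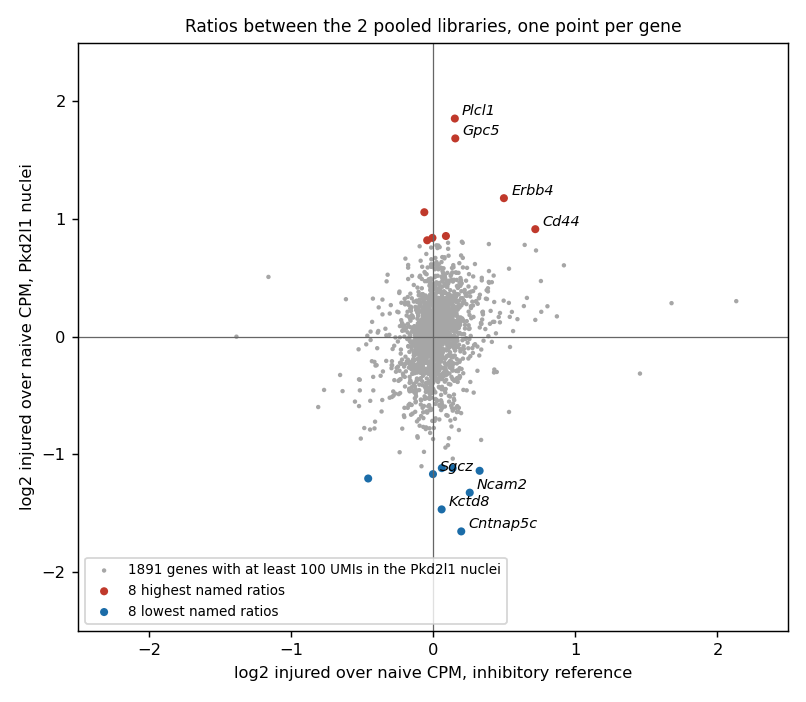
Log2 ratio of injured over naive CPM in Pkd2l1 nuclei (vertical axis) against the same in the inhibitory reference (horizontal axis) for 1891 genes, each a point; coloured points are the 8 highest and 8 lowest named ratios. Plcl1 is at 3.62-fold and Cntnap5c at 0.318-fold in the class, with reference ratios of 1.11 and 1.15.

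The highest ratios did not all hold within nuclei of 1 sex. Plcl1, a phospholipase C-like protein, was at 71.3 CPM in naive and 258 CPM in injured Pkd2l1 nuclei, a ratio of 3.62 (2.52 to 5.26), and at 193 and 214 CPM in the reference. In nuclei with Xist and no Y-linked UMIs the Plcl1 ratio was 2.89 (1.80 to 4.64). Bcl9, a cofactor of beta-catenin, had levels of 80.2 and 167 CPM and thus a ratio of 2.08 (1.41 to 3.08), and 2.06 (1.27 to 3.31) in those nuclei. Memo1 had ratios of 1.81 (1.34 to 2.44) and 1.74 (1.18 to 2.55), Smchd1, which maintains X inactivation, 1.77 (1.19 to 2.62) and 1.86 (1.12 to 3.03), and Kcnn2 1.79 (1.19 to 2.69) and 1.87 (1.04 to 3.31). Cd44, a hyaluronan receptor, had levels of 99.5 and 188 CPM and thus a ratio of 1.88 (1.32 to 2.70), but 1.46 (0.916 to 2.29) in those nuclei. Gpc5, a glypican, had a ratio of 3.22 (2.34 to 4.45), but 0.575 (0.217 to 1.30) in those nuclei and 0.656 without nuclei over 9000 UMIs. Erbb4, a neuregulin receptor, had a ratio of 2.26 (1.64 to 3.13), but 0.841 (0.430 to 1.54) and 0.885. Both thus turned direction in these 2 sets. Without the 8 nuclei that also carried genes of the reference, the ratio was 3.92 (2.65 to 5.90) for Erbb4, 5.59 (3.70 to 8.65) for Gpc5 and 4.41 (2.91 to 6.81) for Plcl1.

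Several of the lowest ratios moved when the nuclei with genes of the reference were left out. Genes over 4-fold lower in the class, such as Grin2b, helped to pick those nuclei. Their ratios without them are therefore a description. Sgcz, a sarcoglycan, stood at 1699 CPM and 756 CPM, which gives a ratio of 0.445 (0.387 to 0.510). Without the 8 such nuclei its ratio was 0.799 (0.614 to 1.03), and without nuclei over 9000 UMIs it turned to 3.12. Ncam2, an adhesion molecule, had a ratio of 0.399 (0.272 to 0.571) and without the 8 nuclei 1.01 (0.631 to 1.59). It was 0.574 without nuclei over 9000 UMIs and 0.339 (0.150 to 0.675) in Xist-only nuclei, and its log2 ratio turned to 0.74 with at least 1 Pkd2l1 UMI. Cntnap5c had a ratio of 0.318 (0.167 to 0.562) and without them 0.157 (0.0179 to 0.640), from 22 and 2 UMIs. Kctd8, a GABA-B receptor subunit, had 0.362 (0.224 to 0.562) and 0.266 (0.0922 to 0.634), but without nuclei over 9000 UMIs it turned to 2.91. Lrpap1 had 0.434 (0.253 to 0.709) and 0.511 (0.284 to 0.876). In Xist-only nuclei the Lrpap1 ratio was 0.589 (0.298 to 1.07), that of Kctd8 0.504 (0.230 to 0.990) and that of Sgcz 0.902 (0.697 to 1.16). Cntnap5c had 0 injured UMIs there. Fam19a1 had a ratio of 0.454 (0.275 to 0.720), without the 8 nuclei 0.315 (0.0339 to 1.44) from 11 and 2 UMIs, and in Xist-only nuclei 0.0386 (0.00096 to 0.221). Grin2b had 0.461 (0.303 to 0.681), 0.622 (0.312 to 1.17) and 0.353 (0.136 to 0.771) in the same order. Kcnip1 had 0.461 (0.286 to 0.718), 0.551 (0.199 to 1.34) and 0.176 (0.0467 to 0.471). These 3 thus stayed under 1 in all 3 sets, with intervals that held 1 without the 8 nuclei. In the reference these 8 genes had ratios between 0.727 and 1.25.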

How the data were processed

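Nuclei were sorted on GFP and sequenced as 10x 3' v3 libraries, per the labels' protocols. Reads were processed with Cell Ranger 3.0.2, Seurat and the mm10 build, per the submitters' processing notes. The labels and notes name neither settings nor a gene annotation. The authors deposited UMI counts (whole numbers, not normalized) for 19575 genes in 7610 nuclei, and a table of natural log values. The deposited natural log table equals ln(1 + 10000 × count / total of the nucleus) within 6e-15, and was used as an alternative only.

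From the counts, nuclei were classed by the UMI rules stated above, with no clustering and no doublet caller; nuclei with Xist and Y-linked UMIs, deep nuclei and nuclei with genes of the reference were counted and left out in alternatives. An oligodendrocyte nucleus had at least 5 UMIs of a set of myelin genes and no inhibitory or Slc17a6 UMI. An excitatory nucleus had at least 2 Slc17a6 UMIs and no inhibitory or Pkd2l1 UMI. Counts were summed per class and library and tested with edgeR 4.0.16 (R 4.3.3; TMM scaling, mean of at least 10 CPM, library as a block, adjusted p under 0.05). The block pairs classes from the same pool of mice, but the sex markers of the classes differed in the naive pool. Of naive nuclei with Xist or Y-linked UMIs but not both, 95.1% of Pkd2l1 nuclei and 67.7% of the reference had Xist. In the injured pool the shares were 64.6% and 65.2%. What this difference contributes to the calls between the classes was not tested. With 4 sums the residual degrees of freedom were 1 and the prior degrees of freedom 45.91, so the spread is largely one shared by all genes. The block takes out the difference between the 2 pooled libraries. The p-values thus rest on how the class difference varied between them, and do not measure spread between mice. DESeq2 1.42.0 was an alternative. Levels and shares have exact Poisson and Clopper-Pearson intervals, and ratios between libraries exact conditional binomial ones (scipy 1.17.1). The test was checked on simulated counts. Promoter windows on mouse chromosome 18 were not searched.

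Genes named in the text are the 15 highest and 10 lowest called genes with at least 20 UMIs per library and 10% of nuclei in the class where they are higher, all CSF-contacting and opioid genes, the called genes with the 4 largest changes in each other list, and the 8 highest and 8 lowest ratios between libraries. Asic1, Asic4, Lmo1, Lmo2, Pax2, Pax8, Pcdh15, Sox2, Zfpm2, Chat, Th, Tph2, Foxj1, Col1a1, Csf1r and C1qa fall outside this rule and were named after their values were seen. Some genes of the lists are not reported here by name. The members and lists were chosen with earlier results of these data known.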

Additional observations from a re-analysis of the deposited data

Results flagged for a closer look

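The share of Pkd2l1 nuclei went in opposite directions between the libraries in nuclei with Xist UMIs only and nuclei with Y-linked UMIs only. Among Xist-only nuclei it was 3.69% in the naive library (98 of 2654) and 1.41% in the injured library (31 of 2197). Among nuclei with Y-linked UMIs only it was 0.474% in the naive library (5 of 1054) and 1.59% in the injured library (17 of 1069). With 1 pooled library per condition the difference was not tested.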

How the results depend on the processing

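The 9 tested CSF-contacting markers were called higher in every setting in which they were counted by list, including DESeq2. Genes such as Gata2 entered each setting only through the Pkd2l1 nuclei, so this count supports nothing beyond their levels. Without the library block, which pairs both classes within a pool of mice, 1034 genes were higher and 1131 lower, and 1030 and 1131 of these were also called with the block. DESeq2 called 625 higher and 621 lower, all among the edgeR calls. Gucy2d, Vgf and Hrh3 were among the named calls lost with it. With at least 1 Pkd2l1 UMI the shares were 3.30% and 2.06%, and without nuclei over 9000 UMIs the injured share was 2.30%. Pkd1l2 in naive Pkd2l1 nuclei was 5737 CPM thinned, 5716 CPM from the normalized values and 5994 CPM without nuclei over 9000 UMIs, and in injured ones 5810 and 6102 CPM thinned and without deep nuclei. Naive Oprk1 was 146 CPM thinned and 144 CPM without deep nuclei. Genes past 1.5-fold higher in the injured library numbered 111 with at least 1 Pkd2l1 UMI, 102 at 50 UMIs, 35 with TMM factors, 19 thinned, 30 without deep nuclei and 34 in Xist-only nuclei. Those lower numbered 38 with at least 3 Pkd2l1 UMIs, 44 without nuclei with Xist and Y-linked UMIs, 161 at 50 UMIs, 16 thinned, 34 without deep nuclei, 30 without nuclei with genes of the reference and 38 in Xist-only nuclei. Penk, which never passed the test, had a log2 fold of -0.44 with at least 3 Pkd2l1 UMIs, -0.24 without nuclei with Xist and Y-linked UMIs, -0.11 in members with inhibitory genes, -0.18 thinned, -0.0042 with DESeq2, -0.015 with no filter, -0.19 without the naive library, 0.24 without the injured library and -0.63 without deep nuclei. Bbs2 was -0.46 without the naive and 1.38 without the injured library. The Ncam2 log2 ratio between libraries was 0.74 with at least 1 Pkd2l1 UMI, and that of Sgcz 1.64 without deep nuclei. The cause was not tested in any of these. The settings on deep nuclei, on nuclei with genes of the reference and on Xist-only nuclei were chosen after seeing the data. Leaving out 1 library leaves no residual degrees of freedom, so it gave folds with no test. Depth limits genes under a few CPM in the 51 injured nuclei.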

Other observations

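Of 15 tested Hox genes, which record position along the body axis, 5 were higher and 1 lower than in the reference. Hoxa10 was at 84.6 and 79.1 CPM in naive and injured Pkd2l1 nuclei against 23.5 and 19.7 CPM (log2 fold 1.83 ± 0.22), and Hoxb9 at 8.91 and 14.7 CPM against 38.7 and 30.5 CPM (log2 fold -1.79 ± 0.38), a call lost with DESeq2. Of 18 tested genes of immature neurons, 4 were higher and 3 lower, and with DESeq2 1 and 1. The rates over all genes were 11.8% higher and 12.9% lower. Stmn2, a microtubule regulator of growing axons, was at 278 and 299 CPM against 161 and 158 CPM (log2 fold 0.76 ± 0.13). Of 10 tested heat shock chaperones 3 were higher, and 1 with DESeq2, led by Hsp90ab1 at 254 and 249 CPM against 149 and 109 CPM (log2 fold 0.86 ± 0.14). Of 3 tested immediate early genes edgeR and DESeq2 called 0, with 0 at an unadjusted p under 0.05.

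The 47 nuclei with 1 Pkd2l1 UMI were unlike the class. Their oligodendrocyte markers summed to 1220 CPM in 25 naive and 3764 CPM in 22 injured nuclei, against 861 and 944 CPM in Pkd2l1 nuclei. In oligodendrocyte nuclei 4 of 44 naive and 6 of 55 injured ones had a Pkd2l1 UMI, a level of 42.8 and 27.8 CPM, while 0 of them had Gata2, Gata3 or Tal1. The oligodendrocyte rule set no limit on Pkd2l1, so a nucleus could fall in both classes.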
